A study of Mus musculus with 47 samples.

Results

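Of 35856 gene symbols measured in mouse embryonic stem cells (ESC) and the neural progenitor cultures (NPC) made from them, 34 genes were chosen because they were switched down in differentiation both with and without the Polycomb protein SUZ12. The values are TPM, transcripts per 1000000, a level scaled for gene length and library depth. A gene was taken when its mean in untreated ESC of the untagged line was at least 10 TPM, its mean in untreated NPC of that line was at most 5% of that, and its mean in SUZ12-depleted NPC was at most 5% of that in SUZ12-depleted ESC. Symbols starting with Mir, Snor or LOC were left out. The first condition was met by 7955 genes, the second by 319 of these (4.01%), and all of them by 34, so that 285 genes at or under 5% in the untagged line kept more than 5% when SUZ12 was depleted. Of the 34 genes, 21 had a usual gene symbol and 13 were unnamed gene models. The values of these 4 groups chose the genes, and are given as a description with no test.

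All 4 lines were C57BL/6 ESC, kept in serum-free N2B27 medium with LIF, CHIR99021 and PD0325901, and all held Tir1, a plant protein through which auxin marks a tagged protein for breakdown. The first line was untagged, and in each of the others SUZ12, MTF2 or JARID2 bore the auxin-inducible degron (AID). Untreated cells were compared with cells given 50 µM indole-3-acetic acid (auxin), for 12 hours in ESC and for 5 days in NPC, which were made with bFGF for 72 hours and then the Hedgehog agonist SAG for 48 hours. The 16 groups held 3 biological replicates each, except SUZ12 NPC with auxin, which held 2, giving 47 libraries. Whether a tagged line was 1 clone or several is not given in the sources used here. For NPC of the MTF2 and JARID2 lines the sample titles say day 0 but the remaining labels say 5 days of NPC culture, and these were taken as right.

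SUZ12 is a core subunit of Polycomb repressive complex 2 (PRC2), which places the repressive mark H3K27me3 on chromatin, in mouse stem cells mainly at CpG-rich promoters. MTF2 and JARID2 belong to alternative accessory forms of the complex that help bring it to chromatin. Stem cells hold their state through a network of transcription factors, among them Nanog, Esrrb, Klf4 and Pou5f1, which is shut down when cells differentiate.

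The libraries held 3.24 to 8.71 M reads (M, 1000000; median 5.39 M), as recovered from the TPM steps. In bulk RNA, fewer cells of a type and less RNA per cell cannot be told apart. The degron acts on the protein, and the tagged genes' RNA was present in all groups, so RNA is no check of depletion: Suz12 stood at 163 ± 5.09 TPM (SD, n = 2) in SUZ12 NPC with auxin and at 77.8 ± 1.5 TPM (SD, n = 3) without. A list of 20 neural progenitor markers summed to 883 to 911 TPM in untreated untagged ESC libraries and to 6605 to 6960 TPM in NPC. In SUZ12 NPC the sum was 6615 to 6745 TPM untreated and 2166 to 2174 TPM with auxin, and that of 16 neuron markers was 5883 to 6183 TPM and 601 to 659 TPM. In JARID2 NPC the neural progenitor sum was 5862 to 5972 TPM untreated and 4239 to 4312 TPM with auxin, and in MTF2 NPC 6576 to 7075 TPM and 6226 to 6752 TPM. The neuron sum was 3111 to 3552 TPM untreated and 1039 to 1135 TPM with auxin in JARID2 NPC, where 15 of the 16 neuron markers fell. It was 5486 to 5651 TPM and 3953 to 4082 TPM in MTF2 NPC, and 5833 to 6298 TPM and 5187 to 5362 TPM in untagged NPC. General pluripotency genes (20) summed to 626 to 662 TPM in untreated SUZ12 NPC and 1993 to 2016 TPM with auxin, and to 808 to 922 TPM and 1366 to 1462 TPM in JARID2 NPC. The part of these marker differences in the values below was not tested.

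Promoters were examined because PRC2 acts mainly at CpG-rich promoters. RefSeq promoters on GRCm38.p6, from 250 bases before to 50 after a transcript start, were used for 24 of the 34 genes. Cdx1 was left out of these on purpose, while the larger sets given below had no such exclusion. The values for the 24 genes therefore do not cover Cdx1. The ratio of observed to expected CpG, taking for each gene its highest promoter, had a median of 0.261 over these 24 genes. The median was 0.427 over 218 of the 285 genes that kept more than 5%, and 0.830 over 6414 of the 7955 genes at 10 TPM or more in ESC. A ratio of 0.6 or more, a usual mark of a CpG island, was reached by 3 of the 24 genes (12.5%), against 30.7% and 84.2% of the other sets. Counted by single promoter, it was reached by 10.7% of the 28 promoters of the 24 genes and by 35.8% of all 32851 promoters. These shares describe the promoters and were not tested. Among the 24 genes, the promoters of the 2 with the highest ratios, of Nupr1 near the middle and of Gpx2 at the low end are printed, with CpG in capitals. They lie at chr4:55532426-55532725 for Klf4 (minus strand), chr4:99656049-99656348 for Foxd3 (plus strand), chr7:126625421-126625720 for Nupr1 (minus strand) and chr12:76795505-76795804 for Gpx2 (minus strand).
Klf4: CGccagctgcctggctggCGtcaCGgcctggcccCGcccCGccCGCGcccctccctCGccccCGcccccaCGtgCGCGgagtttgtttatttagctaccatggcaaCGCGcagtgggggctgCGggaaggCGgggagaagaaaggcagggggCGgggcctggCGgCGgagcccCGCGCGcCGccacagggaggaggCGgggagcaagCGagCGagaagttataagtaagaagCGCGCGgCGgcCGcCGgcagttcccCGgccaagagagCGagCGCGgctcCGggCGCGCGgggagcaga
Foxd3: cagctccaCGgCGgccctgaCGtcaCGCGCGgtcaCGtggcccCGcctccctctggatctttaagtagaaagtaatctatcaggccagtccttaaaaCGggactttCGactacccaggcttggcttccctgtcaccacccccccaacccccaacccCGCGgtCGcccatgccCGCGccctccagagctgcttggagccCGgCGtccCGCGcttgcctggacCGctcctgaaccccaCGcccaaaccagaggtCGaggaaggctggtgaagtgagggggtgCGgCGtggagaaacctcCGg
Nupr1: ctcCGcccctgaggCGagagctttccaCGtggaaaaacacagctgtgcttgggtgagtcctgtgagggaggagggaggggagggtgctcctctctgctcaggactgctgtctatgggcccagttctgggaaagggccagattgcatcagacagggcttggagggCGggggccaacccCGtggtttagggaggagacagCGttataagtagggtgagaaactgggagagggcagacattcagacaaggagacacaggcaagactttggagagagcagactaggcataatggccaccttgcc
Gpx2: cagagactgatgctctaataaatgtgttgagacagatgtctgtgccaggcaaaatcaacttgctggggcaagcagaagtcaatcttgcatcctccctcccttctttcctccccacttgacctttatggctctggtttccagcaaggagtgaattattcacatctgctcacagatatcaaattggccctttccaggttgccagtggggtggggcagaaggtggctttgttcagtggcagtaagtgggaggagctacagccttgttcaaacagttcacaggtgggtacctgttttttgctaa

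The Klf4 promoter holds 40 CpG in its 300 bases (observed over expected 0.974) and that of Foxd3 holds 25 (0.793), whereas that of Nupr1 holds 6 (0.252) and that of Gpx2 holds 0. Ankrd35 was the third of the 24 genes above the mark, at 0.605, and no CpG was found in the promoters of Gpx2, Gm15698 (now Elobl) and Gm694 (now Srarp). Both strands of the 28 promoters of the 24 genes were searched for 5 motifs. The octamer ATGCAAAT was in 0 of 28, against 1.74% of all 32851 promoters. The ESRRB motif AAGGTCA was in 2, those of Gpx2 and Gm15698 (7.14% against 4.72%), and the KLF box CCACACCC in 1, that of 1700061G19Rik (3.57% against 3.56%). The E-box CACGTG was in 4, those of Foxd3, Klf4, Mcf2 and Nupr1 (14.3% against 7.15%). The STAT motif TTCCNNGAA was in 4, those of Gm13580, Gm15698, Lrrc2 and Nupr1 (14.3% against 4.81%). A match describes letters in the window only.

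The 34 genes spanned 10.6 to 1130 TPM in untreated untagged ESC, with a median of 39.9 TPM. In the heat map of all libraries the colour of the 24 ESC libraries followed the level of each gene, and the 23 NPC libraries were low beside ESC for all 34 genes. In untreated untagged NPC, 11 of the 34 genes had no read in any of the 3 libraries, and the median was 1 read over the group. In SUZ12 NPC with auxin each gene had at least 1 read, with a median of 8.5 reads over the 2 libraries. The lowest NPC values therefore rest on very few reads.

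**Figure D1:**
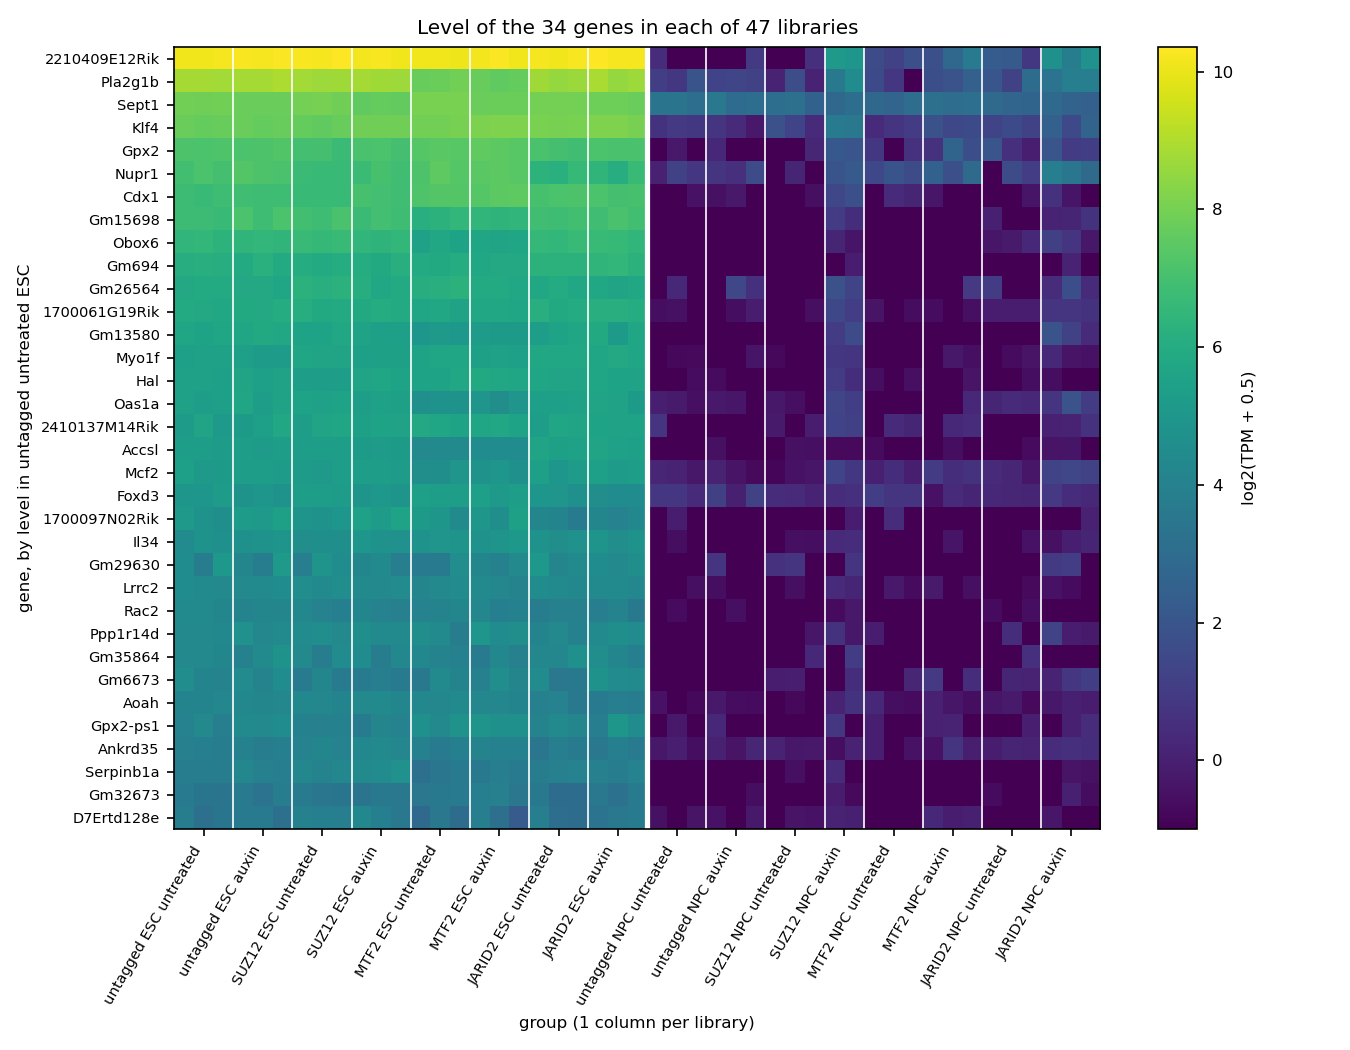
Heat map of log2(TPM + 0.5) of the 34 genes (rows, ordered by level in untreated untagged ESC) in 47 libraries (columns, grouped by line, stage and treatment; thin white lines part groups and the thick line parts ESC from NPC). Colour in the ESC columns fades down the rows with the level of the gene. Among NPC columns the 2 of SUZ12 with auxin and the 3 of JARID2 with auxin hold the most genes above the darkest colour.

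4 transcription factors of development were among the genes. Klf4, a naive pluripotency factor, stood at 215, 205 and 213 TPM in untreated untagged ESC and at 1.06, 1.35 and 1.28 TPM in the matching NPC. With SUZ12 depleted it stood at 241, 239 and 237 TPM in ESC and at 12.3 and 11.2 TPM in NPC. Its NPC level was thus 4.91% of the ESC level without SUZ12, against 0.584% in the untagged line, and both depleted NPC libraries lay above all other NPC libraries of the series. Klf4 was the gene nearest the 5% threshold.

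Foxd3, a forkhead factor of pluripotent cells and of neural crest, behaved differently. It stood at 31.6, 31.1 and 36.9 TPM in untreated untagged ESC and at 1.23, 1.26 and 0.824 TPM in NPC. In SUZ12 NPC it was 0.856, 0.820 and 0.591 TPM untreated and 0.878 and 0.925 TPM with auxin. The share left was 3.32% in the untagged line and 2.98% without SUZ12. A list of 10 neural crest markers, Foxd3 among them, summed to 13.0 to 15.8 TPM in untreated SUZ12 NPC and 59.4 to 64.5 TPM with auxin, a sum that differed far more than Foxd3 did.

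Cdx1, a caudal-type homeobox gene, averaged 110 ± 5.10 TPM (SD, n = 3) in untreated untagged ESC and was left at 0.0675% in NPC, and at 2.02% without SUZ12, where the 2 libraries held 2.14 and 2.93 TPM. Obox6, an oocyte-specific homeobox gene, averaged 86.8 ± 4.57 TPM (SD, n = 3) in ESC and had no read in NPC of the untagged line with or without auxin. Its 2 SUZ12-depleted NPC libraries held 0.624 and 0.274 TPM, 3 reads in all. For both genes the depleted NPC libraries lay above those of the untreated SUZ12 line, where Obox6 had no read. In all, that order held for 24 genes of the chosen set, and the reverse order for 0. Of 16469 genes tested in that comparison, 30.9% had all auxin libraries above the untreated ones and 42.5% had all below. The depleted group helped choose the genes, so this order is a description.

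Nupr1, a small stress-induced chromatin-associated protein, stood at 121, 141 and 127 TPM in untreated untagged ESC and at 0.517, 1.79 and 1.25 TPM in NPC. It held 3.33 and 4.09 TPM in SUZ12-depleted NPC, a share of 3.14%.

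Genes of signalling and the cytoskeleton made a further group. Sept1, a septin GTPase, stood at 243, 239 and 245 TPM in untreated untagged ESC and at 9.73, 9.82 and 8.19 TPM in NPC, 3.82%, the highest share among the 34 in that line. SUZ12 NPC held 7.98, 8.59 and 5.34 TPM untreated and 6.66 and 8.21 TPM with auxin, so the groups overlapped. Mcf2, a guanine nucleotide exchange factor, averaged 37.8 TPM in ESC and was left at 1.37% in the untagged line and 4.03% without SUZ12. Myo1f, an unconventional myosin (44.0 TPM in ESC), was left at 0.151% and 2.85%, and Rac2, a small GTPase (19.5 TPM), at 0.210% and 1.53%. Il34, a ligand of the CSF1 receptor (25.0 TPM), was left at 0.232% and 2.87%, and Ppp1r14d, a protein phosphatase inhibitor (19.5 TPM), was listed at 0 and left at 3.17%.

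Enzymes included the most abundant usual gene of the set. Pla2g1b, a secreted phospholipase A2, stood at 456, 461 and 444 TPM in untreated untagged ESC and at 1.68, 1.30 and 3.39 TPM in NPC. Its SUZ12-depleted NPC libraries held 11.6 and 21.6 TPM, a share of 3.84% against 0.468%. Gpx2, a selenium-dependent glutathione peroxidase (145 TPM in ESC), was left at 0.0806% in the untagged line and at 2.70% without SUZ12. Reads of Gpx2 and of its pseudogene Gpx2-ps1 (16.6 TPM) could be shared, and how the authors' counting treated such reads is not given in the sources used here. The same holds for Oas1a, an oligoadenylate synthetase with close copies (42.6 TPM, left at 0.821% and 4.35%).

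Hal, histidine ammonia-lyase (43.7 TPM in ESC), was left at 0.107% in the untagged line and at 2.47% without SUZ12. Accsl, a homologue of aminocyclopropane-carboxylate synthase (39.0 TPM), was listed at 0 and left at 0.302%, the lowest share of the 34 without SUZ12. Aoah, an acyloxyacyl hydrolase that acts on lipopolysaccharide (17.5 TPM), was left at 0.630% and 4.23%. Serpinb1a, a serine protease inhibitor (13.3 TPM), was listed at 0 and left at 1.77%. The repeat proteins Lrrc2 (21.2 TPM) and Ankrd35 (14.2 TPM) were left at 3.44% and 1.97% without SUZ12. Ankrd35, Foxd3 and Sept1 had the highest untagged shares of the 34, and for these 3, and for the model 1700097N02Rik, the share without SUZ12 was the lower one.

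Among the unnamed models, named here after their values were seen, 2210409E12Rik was the most abundant of all 34 genes. It is a transcribed processed pseudogene, so its reads may be shared with its parent gene. It stood at 1130 ± 52.1 TPM (SD, n = 3) in untreated untagged ESC and at 0.859, 0 and 0 TPM in NPC, and at 34.3 and 31.1 TPM in SUZ12-depleted NPC. Protein-coding genes made up 24 of the 34 (70.6%), against 89.1% of the 285 genes that kept more than 5% and 96.5% of the genes at 10 TPM or more. The other members were 7 noncoding genes and 3 pseudogenes.

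The thresholds cut through a continuous range of shares. Among named genes, just inside the SUZ12 condition lay Klf4 (4.91%), Oas1a (4.35%) and Aoah (4.23%), and just outside lay Spic (5.06%), Osm (5.11%) and H2-M5 (5.36%). Just outside the ESC minimum lay Pgpep1l (8.43 TPM), Myh13 (7.97 TPM) and Klk1 (7.97 TPM), and just inside lay Serpinb1a, Ankrd35 and Gpx2-ps1 among named genes. Of the genes at 10 TPM or more, 35 (0.44%) were at most 5% in SUZ12-depleted cells, and the one outside the set was Foxn4, a forkhead factor left at 27.4% in the untagged line and at 2.22% without SUZ12.

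The 34 genes had a lower median NPC share than the 285 others in each of the 8 pairs of groups, including the 6 that the rule did not use. The ranges of the 2 sets overlapped in every pair except SUZ12 with auxin, where the rule parts them. The median share of the 34 genes was 0.214% in untreated and 0.259% in auxin-treated untagged cells and 0.239% in the untreated SUZ12 line. It was 0.253% and 0.501% in the MTF2 line, and 0.583% and 1.61% in the JARID2 line, without and with auxin. The 285 others had medians of 1.43%, 1.6%, 1.61%, 2.10%, 3.26%, 3.53% and 8.08% in the same order. With SUZ12 depleted the medians were 3.15% and 20.7%, a gap that the rule itself sets.

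**Figure D2:**
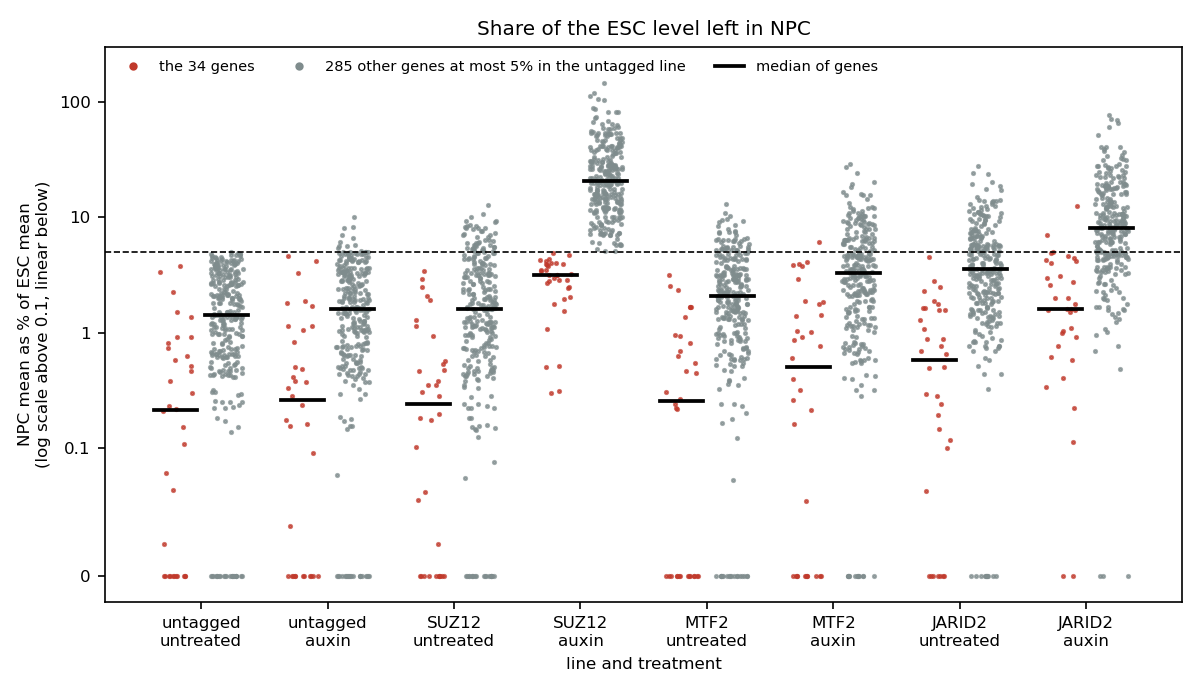
NPC mean as a percentage of the ESC mean for each line and treatment, on an axis that is logarithmic above 0.1 and linear below. Red points are the 34 genes, grey points the 285 other genes at or under 5% in the untagged line, black bars the medians over genes, and the dashed line 5%; red medians lie below grey medians in all 8 columns, at 3.15% and 20.7% for SUZ12 with auxin.

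The level left in NPC was higher without SUZ12, so the 34 genes were low there in the sense of the 5% limit and not at their untreated level. The median share of the 34 genes was 13.2 times as high with auxin as without in the SUZ12 line, and that of the 285 others was 12.8 times as high. The ratios were 2.76 and 2.29 in the JARID2 line, 1.98 and 1.55 in the MTF2 line, and 1.21 and 1.12 in the untagged line. These ratios of medians over genes are descriptions with no test. In untreated SUZ12 NPC the median gene of the 34 had 1 read over the group, and the median share was 0 in each of the 3 libraries. The ratio of 13.2 therefore rests on very few reads. The rule also caps the share with auxin at 5%, so nothing is read from its closeness to 12.8. The 2 SUZ12-depleted libraries gave nearly the same median over the 34 genes, 3.00% and 2.99%, and their summed NPC levels were 99.4 and 106 TPM, against 12.0 to 18.2 TPM in untreated SUZ12 NPC. Of the 34 genes, 31 had a higher mean in SUZ12 NPC with auxin than without and 3 a lower mean. The median log2 change over all 16469 genes tested there was -0.098. The group with auxin helped choose the genes, and 10 of the 34 had no read in untreated SUZ12 NPC, so those could not go lower. In the untagged line auxin gave a higher mean for 16 and a lower one for 10.

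**Figure D3:**
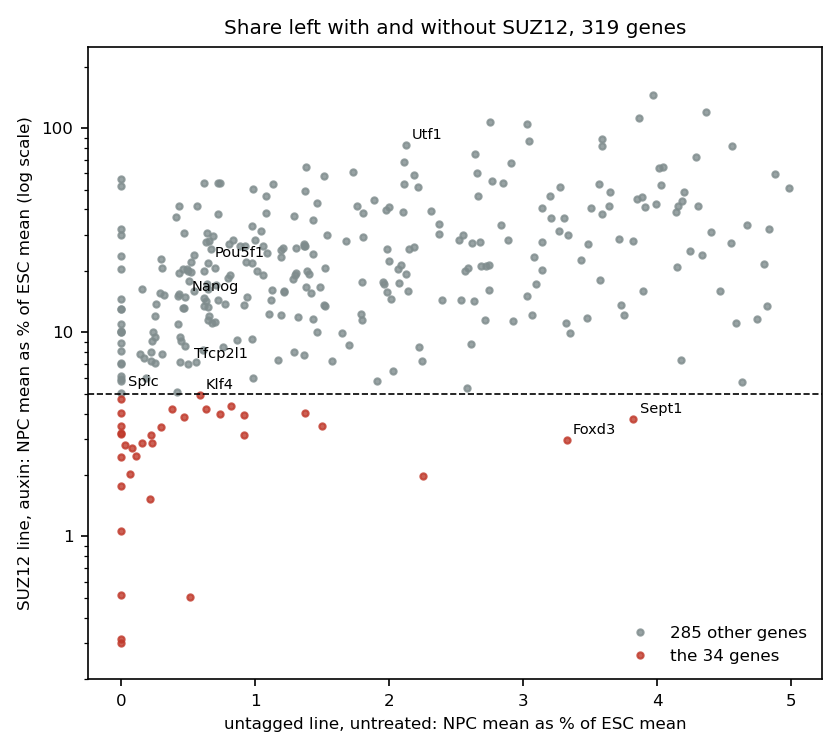
Share of the ESC level left in NPC for the 319 genes at or under 5% in the untagged line, untreated untagged cells (horizontal axis, %) against SUZ12 cells with auxin (vertical axis, %, log scale). Red points under the dashed 5% line are the 34 genes; Klf4 lies just under the line and Spic just above it, and Nanog, Pou5f1 and Utf1 lie above it at 14.9%, 21.9% and 82.3%.

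Most pluripotency genes were outside the set, as were 285 of all 319 genes at or under 5% in the untagged line. The lists below are therefore described and not set apart from the other genes. Of 22 naive pluripotency factors, all at 10 TPM or more in ESC, 17 were at most 5% in the untagged line and 1, Klf4, was so without SUZ12. The median share of the 22 was 0.634% in the untagged line and 15.1% without SUZ12. Nanog was left at 0.474% and 14.9%, Esrrb at 0.543% and 16%, and Tfcp2l1 at 0.495% and 6.98%. Of 19 general pluripotency genes at 10 TPM or more, 13 were at most 5% in the untagged line and 1, Foxd3, without SUZ12, with medians of 2.12% and 26.4%. None of 16 germ line genes at 10 TPM or more was in the set, though 9 were at most 5% in the untagged line. Among the 285 others, the genes with the highest shares without SUZ12 included Cldn4, a tight junction protein (146%), Rhox1, a reproductive homeobox gene (121%), Fabp3, a fatty acid binding protein (112%), and Utf1, a chromatin factor of pluripotent cells (82.3%).

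The fall in differentiation was tested in the 6 pairs of groups that the rule did not use, with limma on log2(TPM + 0.5). All 34 genes fell in untagged cells with auxin, an outcome close to fixed because the rule chose them for a fall in that line. Of 17760 genes tested, among them genes low in ESC, 29% fell there. The 34 genes likewise all fell in the untreated SUZ12 (background 26.6%), MTF2 (26.7%) and JARID2 (26.3%) lines. They also all fell with MTF2 (25.6%) or JARID2 (25.3%) depleted. The median log2 change of the 34 genes was -5.92 in untagged cells with auxin and -5.94, -5.53 and -5.55 in the untreated SUZ12, MTF2 and JARID2 lines. It was -5.51 with MTF2 depleted and -4.90 with JARID2 depleted, and the median over all genes tested lay between 0.22 and 0.36. These log2 values depend on the 0.5 added where NPC reads are few. Called genes over the whole table were 8192 higher and 5142 lower in untagged cells with auxin, and 6671 and 6627 under median-of-ratios scaling, which moved the median of all genes by up to 0.36 in these comparisons. All 34 genes were still called lower under that scaling.

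Klf4 changed by -6.54 ± 0.23 (log2, SE) with MTF2 depleted and by -5.92 ± 0.23 with JARID2 depleted (adjusted p = 5.74e-24 and 1.74e-22), against -7.30 and -6.72 in the untreated lines. Foxd3 changed by -5.27 ± 0.19 with MTF2 depleted and by -4.0 ± 0.19 with JARID2 depleted (adjusted p = 4.05e-24 and 3.2e-20). Sept1 changed by -4.64 ± 0.12 and -5.17 ± 0.12 (adjusted p = 3.74e-29 and 2.33e-30). For each of these genes ESC and NPC libraries did not overlap.

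All 34 genes were at most 5% of their ESC level in auxin-treated untagged cells, an outcome close to fixed by their choice in that line. Of the 7955 genes at 10 TPM or more, 4.02% met that limit there. The 34 genes also all met it in the untreated SUZ12 (background 3.52%), MTF2 (3.58%) and JARID2 (2.73%) lines. With MTF2 depleted, 33 of the 34 genes were at most 5% of their ESC level, and the exception was D7Ertd128e at 6.08%. Of the genes at 10 TPM or more 2.95% met that limit, and of the 285 others 68.8%. With JARID2 depleted 32 of the 34 met it, against 1.57% of the genes at 10 TPM or more and 31.2% of the 285 others. The exceptions were Nupr1 at 12.5% and Ankrd35 at 7.07%.

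In the JARID2 line several of the genes were less reduced in NPC with auxin than without. Neuron marker sums were lower and general pluripotency sums higher in the same auxin-treated NPC libraries, and their part in this was not tested. The fall was smaller with auxin than without for 32 of the 34 genes, and the share over all genes was not counted. The difference passed the test for 6, all toward a smaller fall. Over all 17760 genes tested, 5.89% passed in that direction and 9.16% in the other. All 34 met the filter of this fit through ESC, where the rule makes them high, and 20 met it within NPC. In untreated JARID2 NPC 7 had no read and the median was 2 reads, so a larger fall with auxin could hardly show. These counts are therefore a description. The median difference was 0.51 over the 34 genes and -0.05 over all genes tested. Under median-of-ratios scaling 9 of the 34 passed, while the calls over all genes turned from 1046 higher and 1626 lower to 1472 higher and 1265 lower. The general pluripotency list gave 17 higher and 0 lower of 20, and the naive list 13 higher and 2 lower of 22.

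Nupr1 had the largest difference of the 34 genes. It stood at 0, 2.5 and 1.56 TPM in untreated JARID2 NPC and at 13.9, 10.6 and 7.13 TPM with auxin. In JARID2 ESC it was 79.9, 72.4 and 97.7 TPM untreated and 85.4, 66.3 and 101 TPM with auxin. NPC libraries did not overlap and ESC libraries did. The difference of the changes was 2.87 ± 0.56 (log2, SE, adjusted p = 0.000403), and 0.0589 with only the JARID2 groups in the fit.

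Mcf2 stood at 0.779, 0.656 and 0.306 TPM in untreated JARID2 NPC and at 2.02, 2.14 and 1.77 TPM with auxin. The difference of its changes was 1.10 ± 0.26 (log2, SE, adjusted p = 0.00228), and it was called under all 19 alternatives. A further 4 unnamed models, singled out after their values were seen, also passed. Gm13580 is annotated as an antisense RNA; the libraries kept strand, but whether the counting used it is not given in the sources used here, so reads of an overlapping gene cannot be told apart. It had no read in NPC of the untagged or MTF2 lines or of the untreated JARID2 and SUZ12 lines. It held 3.27, 1.82 and 0.795 TPM in JARID2-depleted NPC, 7 reads in all, and 1.49 and 2.61 TPM in SUZ12-depleted NPC. Its fitted difference, which depends on the 0.5 added, was 2.12 ± 0.27 (log2, SE, adjusted p = 5.51e-07).

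The pseudogene 2210409E12Rik held 4.38, 4.16 and 1.29 TPM in untreated JARID2 NPC and 25.5, 13.5 and 26.0 TPM with auxin, 8 and 53 reads in all. Its difference was 2.56 ± 0.63 (log2, SE, adjusted p = 0.00429), a call lost at a pseudocount of 0.1 (adjusted p = 0.112). Gm15698 had 1 read untreated and 4 with auxin, with a fitted difference of 0.89 (adjusted p = 0.00602) that depends on the 0.5 added. The Gm15698 call was lost with voom on the recovered reads (adjusted p = 0.163) and with only the compared groups in the fit (0.125). 1700061G19Rik (now Acsbg3) had 10 and 26 reads, with a difference of 0.70 (adjusted p = 0.0331). The 1700061G19Rik call was lost under 10 of 19 alternatives, and without any 1 of the 3 auxin-treated NPC libraries its adjusted p was 0.0513 to 0.0568. 2210409E12Rik and Gm15698 are neighbours on chromosome 11, 5.73 kb apart, the closest pair among the 34 genes, which lie on 17 chromosomes. Gm15698 lies at 88964658 to 88966931 and 2210409E12Rik at 88972657 to 88973002 on mm10.

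**Figure D4:**
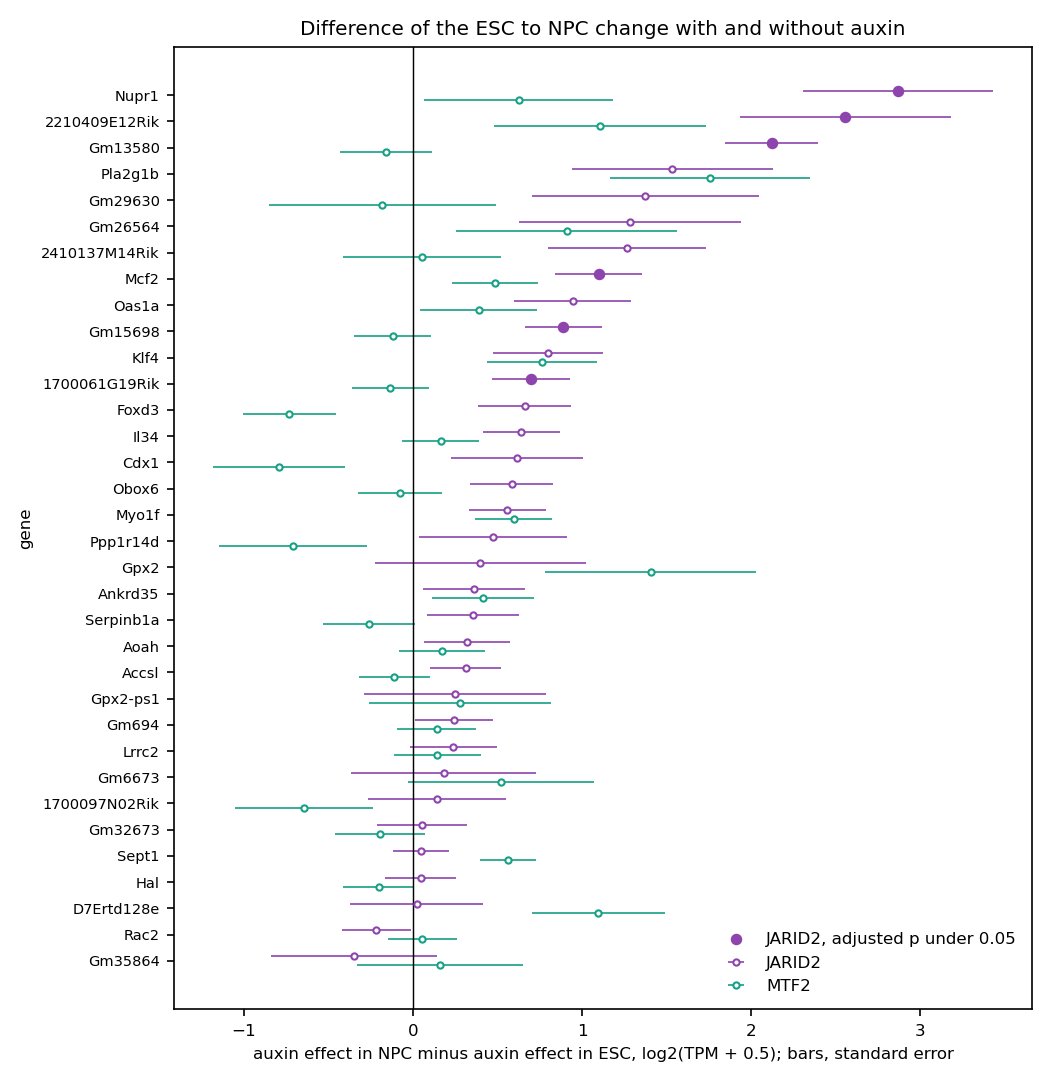
Auxin effect in NPC minus auxin effect in ESC, in log2(TPM + 0.5), for the 34 genes (rows) in the JARID2 line (purple) and the MTF2 line (green), with bars of 1 standard error. Filled points passed an adjusted p of 0.05: 6 genes in the JARID2 line, from 0.70 to 2.87, and 0 in the MTF2 line.

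Within JARID2 NPC, 20 of the 34 genes passed the filter of 1 TPM in 2 NPC libraries, mostly through the groups in which they are high. Of these 20, 8 were higher with auxin and 0 lower, beside 9.28% higher and 15.7% lower of 16469 genes tested. The 8 became 5 without untreated replicate 2 or 3, 5 at a pseudocount of 0.1, and 3 with only the compared groups in the fit. Median-of-ratios scaling turned the calls over all genes from 1528 higher and 2588 lower to 2237 and 2195. With 14 genes untested, these counts are a description. They added Pla2g1b and the model 2410137M14Rik to the 6 genes above. Pla2g1b held 3.58, 1.81 and 7.61 TPM untreated and 9.53, 14.2 and 13.9 TPM with auxin, a log2 change of 1.6 ± 0.57 (SE, adjusted p = 0.0475), and that call was lost under 9 of 13 alternatives. Klf4 held 2.04, 2.40 and 1.76 TPM untreated and 5.12, 2.35 and 5.57 TPM with auxin. One auxin library lay within the untreated range, and the change of 0.85 ± 0.32 did not pass (SE, adjusted p = 0.0571).

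Depletion of MTF2 gave no call on the difference of the changes, where 1.66% of 17760 genes were called higher and 1.31% lower, and 8 of the 34 genes had an unadjusted p under 0.05. The 3 named genes with the smallest p were Sept1 at 0.56 ± 0.17 (log2, SE, adjusted p = 0.0552), Pla2g1b at 1.76 ± 0.59 (adjusted p = 0.107) and Foxd3 at -0.73 ± 0.27 (adjusted p = 0.154). Within MTF2 NPC 0 of 20 genes were called by limma, beside 5.03% higher and 3.11% lower of all genes tested, and 4 of the 20 had an unadjusted p under 0.05. Calls over all genes there were 828 higher and 512 lower, and 722 and 805 under median-of-ratios scaling. Klf4 held 0.769, 1.17 and 1.45 TPM untreated and 3.03, 2.22 and 2.43 TPM with auxin, so the groups did not overlap, but the change of 0.92 ± 0.32 did not pass (log2, SE, adjusted p = 0.0811). The naive list had 3 higher of 22 in the difference of the changes and the general list 6 of 20.

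Foxd3 libraries with auxin lay on opposite sides of the untreated ones in the MTF2 and JARID2 lines. MTF2 NPC held 1.58, 1.20 and 1.16 TPM untreated and 0.229, 0.777 and 0.623 TPM with auxin, all lower. JARID2 NPC held 0.697, 0.660 and 0.616 TPM untreated and 1.35, 0.861 and 0.752 TPM with auxin, all higher. The difference between the lines, a test added after the data were seen, was 1.17 ± 0.41 and did not pass (log2, SE, adjusted p = 0.0761). The count over the 20 genes that passed the filter is a description here too. In that test 1 of them was past the threshold, beside 1.82% higher and 7.82% lower of 16469 genes: Gm13580 at 2.17 ± 0.46 (log2, SE, adjusted p = 0.0034), with 0 reads in the other 3 groups compared, a call lost with only the compared groups in the fit (adjusted p = 0.0579) and with voom on the recovered reads (0.177). Over all genes 300 were higher and 1288 lower, and 615 and 912 under median-of-ratios scaling.

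**Figure D5:**
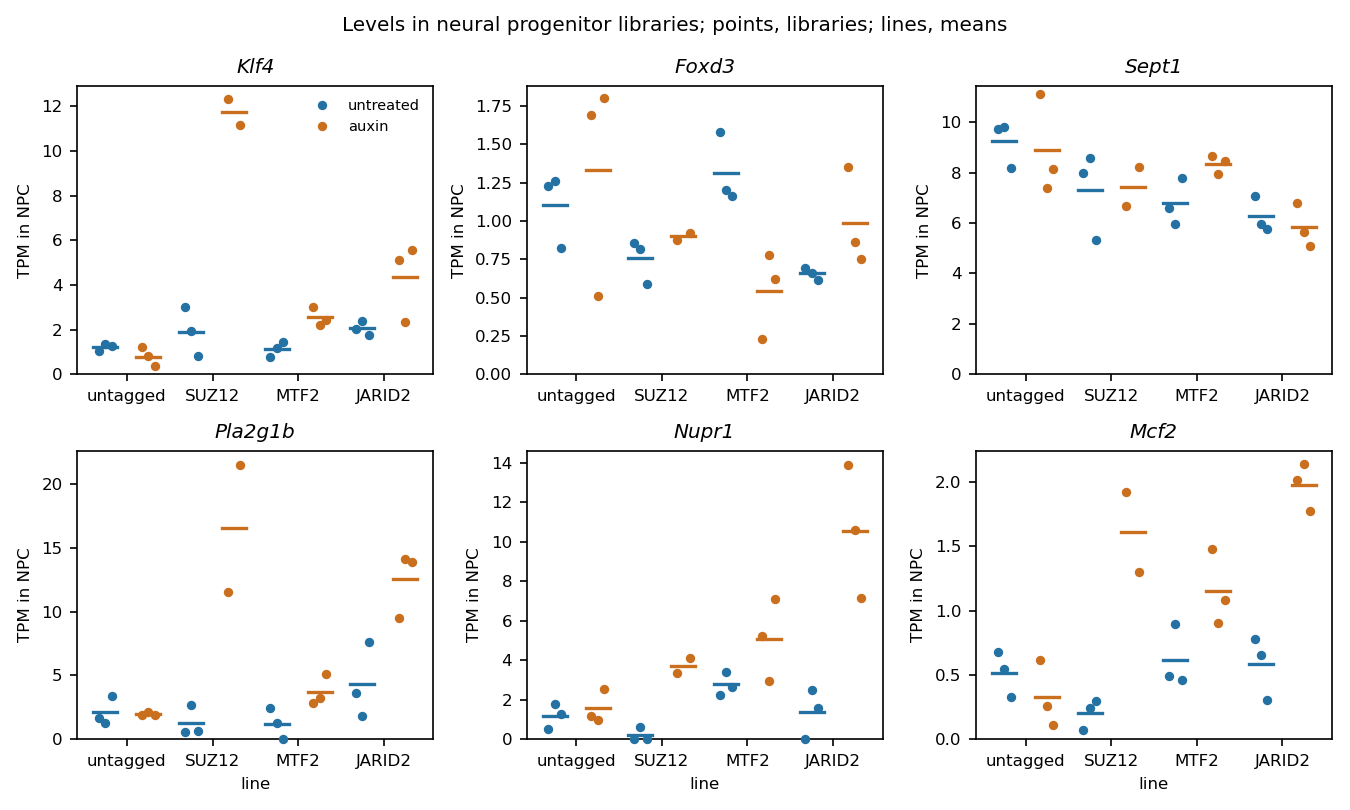
TPM of 6 genes in the 23 NPC libraries, by line (horizontal axis) and treatment (blue, untreated; orange, auxin); points are libraries and lines are group means. Klf4 reached 12.3 and 11.2 TPM with SUZ12 depleted, Nupr1 was highest with JARID2 depleted at 7.13 to 13.9 TPM, Foxd3 libraries with auxin lay below the untreated ones in the MTF2 line, and Sept1 libraries lay between 5.09 and 11.1 TPM throughout.

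In stem cells 12 hours of auxin moved few of the 34 genes. With MTF2 depleted Sept1 fell by 0.27 ± 0.03 (log2, SE, adjusted p = 2.91e-05), from 265, 268 and 265 TPM to 219, 220 and 222 TPM, with no overlap. In untagged ESC, which carry no degron, the change of Sept1 with auxin was -0.17 ± 0.03 (log2, SE), and whether the lines differ in it was not tested. Klf4 rose by 0.16 ± 0.04 (adjusted p = 0.0418), from 249, 244 and 264 TPM to 274, 286 and 286 TPM, a call lost under 7 of 13 alternatives, among them 5 of the 6 that leave out 1 library. Among all 15104 genes tested 0.629% were called higher and 0.457% lower. With JARID2 depleted 0 of the 34 were called, beside 0.113% higher and 0.185% lower, and 4 had an unadjusted p under 0.05. The smallest p there belonged to Sept1 at -0.14 ± 0.03 (log2, SE, adjusted p = 0.0503).

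The SUZ12 and untagged auxin comparisons hold groups that chose the genes, and their counts are a description. With SUZ12 depleted in ESC 3 of the 34 genes were past the threshold higher (Cdx1, Hal and Klf4) and 4 lower, among them Sept1, Foxd3 and Myo1f, beside 5.89% higher and 0.94% lower of all genes. Median-of-ratios scaling gave 2 higher and 7 lower of the 34, and turned all genes from 889 higher and 142 lower to 407 and 745. Sept1 was also past it in untagged ESC with auxin (background 0.0596% higher and 0.152% lower), where it went from 243, 239 and 245 TPM to 214, 214 and 215 TPM without a degron. Its mean ESC level was lower with auxin in all 4 lines. In SUZ12 NPC 15 of 20 were past it higher and 0 lower (background 23.9% and 33%; 3931 and 5437 genes, and 5062 and 4300 under median-of-ratios scaling), and in untagged NPC 0 of 20 (background 0% in both directions, with 1180 genes at an unadjusted p under 0.05 and none of the 20).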

How the data were processed

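Polyadenylated RNA of 47 libraries was read from the deposited TPM table, which holds transcripts per 1000000 for each gene symbol as the authors computed them. The submitters' processing notes name STAR 2.6.1d and mm10; the sources used here do not give the counting tool or its annotation. Low TPM values stepped by a fixed amount for each gene and library, which returned whole reads for 100% of 27296 genes above 0 (tolerance 0.001). The sums of these reads give the depth.

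Symbols were matched to GENCODE M21 and RefSeq on GRCm38, which is mm10. Genes at 1 TPM or more in 2 libraries entered limma 3.58.1 (R 4.3.3; trend and robust options), run on log2(TPM + 0.5) with the 8 groups of 1 stage, or all 16 groups where stages were compared. Calls used a Benjamini-Hochberg adjusted p under 0.05, two-sided, over all genes tested. The fit of the NPC groups was tested on simulated reads, with changes planted in the JARID2 group with auxin. Only well-covered genes were given a change, so the simulation does not cover calls on few reads. The fit of all 16 groups was not simulated. Replicate numbers were not taken to pair the samples. Over genes, the deviations of same-numbered libraries from their own group means correlated at -0.055 to 0.115 between compared groups. As alternatives, the pseudocount was set to 0.1 or 1, the filter dropped, values rescaled by median-of-ratios, a replicate block added, the fit limited to the compared groups, voom run on the recovered reads, and each library left out.

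The genes and lists were chosen with earlier results of these data known. Named were members on a list, the 15 most abundant in ESC, called members, those with extreme shares, and those nearest each threshold, leaving out unnamed models unless stated.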

Additional observations from a re-analysis of the deposited data

Results flagged for a closer look

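In the JARID2 line the auxin effect in NPC differed from that in ESC by limma's test of the difference for 6 of the 34 genes, in log2(TPM + 0.5): Nupr1 by 2.87, 2210409E12Rik by 2.56, Gm13580 by 2.12, Mcf2 by 1.10, Gm15698 by 0.89 and 1700061G19Rik by 0.70. Of 19 alternatives, 10 lost the call of 1700061G19Rik and 2 that of Gm15698. The calls of Nupr1 and 2210409E12Rik were each lost under 1, and those of Gm13580 and Mcf2 under 0. All 34 genes met the filter of that fit through ESC, and 7 had no read in untreated JARID2 NPC, so the count of 6 is a description. Between the untreated and auxin-treated JARID2 NPC libraries the sum of 16 neuron markers went from 3111 to 3552 TPM to 1039 to 1135 TPM, and that of 20 neural progenitor markers from 5862 to 5972 TPM to 4239 to 4312 TPM; their part in the result was not tested. Between the JARID2 and MTF2 lines the auxin effect in NPC was fitted as differing by 2.17 for Gm13580. That value is a description: the gene had 7 reads in JARID2-depleted NPC and 0 in the other 3 groups compared, passed the filter only through groups where it is high, and was not called with only the compared groups (adjusted p = 0.0579) or with voom (0.177). For Foxd3 the auxin effects of the 2 lines differed by 1.17, with every JARID2 library higher and every MTF2 library lower with auxin; limma's test of this difference did not pass (adjusted p = 0.0761).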

How the results depend on the processing

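All 34 genes were called lower in the 6 tested falls under every alternative run, in 2652 pairs of gene and alternative. The rule gave 11 genes at a share of at most 2.5% and 83 at 10%, and 32 to 36 with 1 library left out. Without SUZ12 NPC auxin replicate 1, 6 of the 34 were lost and 5 others entered, and without replicate 2, 3 were lost and 4 entered. Of the auxin comparisons, MTF2 ESC gave 2 calls among the 34, 1 with no filter, 1 with only the compared groups, and 1 to 2 with 1 library left out. JARID2 ESC gave 0, and 1 at a pseudocount of 0.1. MTF2 NPC gave 0, 1 with no filter, and 0 to 1 with 1 library left out (1 without untreated replicate 1). JARID2 NPC gave 8, 5 at a pseudocount of 0.1, 3 with only the compared groups, and 5 to 6 with 1 library left out; the lowest count came without untreated replicate 2 or 3. The MTF2 difference gave 0, 1 at a pseudocount of 0.1 or 1, 1 with only the compared groups, and 0 to 1 with 1 library left out (1 without NPC untreated replicate 1 or 3, NPC auxin replicate 1 or ESC auxin replicate 1). The JARID2 difference gave 6, and 5 to 9 over its alternatives. The test added between the lines gave 1, 2 at a pseudocount of 1, 0 with only the compared groups, and 1 to 2 with 1 library left out (2 without JARID2 NPC untreated replicate 2). With the replicate block, the MTF2 difference gave 1 call, the JARID2 difference 7, JARID2 NPC 6 and SUZ12 NPC 14 in place of 15; the other counts of calls among the 34 did not change. The causes were not tested. Few reads limit the NPC values: the median gene had 1 or 2 reads in each untreated NPC group.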
